A study of Rattus norvegicus with 12 samples.

Results

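The genes described here are 9 transcription factors that define the pancreatic beta cell: Mafa, Mnx1, Nkx6-1, Pdx1, Pax6, Nkx2-2, Isl1, Foxa2 and Neurod1. They were chosen by name, as known regulators of islet and beta-cell identity, and not by a measured value, although earlier results of these data were known. All 9 were among the 31368 gene names of the count table. Of the 9, 8 passed the filter on low counts and were tested among 16814 genes, and Neurod1 was listed at 0 counts in all 12 libraries. Their levels were measured by sequencing of RNA near transcript ends. The cells were INS-1 832/3, derived from a rat insulinoma and used as a beta-cell model because they secrete insulin in response to glucose. The design asked what aggregating islet amyloid polypeptide (IAPP) does to these cells, and whether urolithin B, a gut microbial product of ellagitannins, given beforehand changes it. There were 4 groups of 3 libraries. The first received 50 uM urolithin B for 12 h and then 2 uM IAPP for 24 h, the second 2 uM IAPP for 24 h alone, the third 50 uM urolithin B for 12 h alone, and the control neither agent. All cells are listed as wild type. Every value comes from 1 tumour-derived line and not from islets.

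The beta-cell transcription factors form a network in which most members bind the insulin gene, each other's genes and their own. Pdx1 is needed for the pancreas to form and later for insulin transcription, and Nkx2-2, Neurod1, Pax6 and Isl1 act in endocrine differentiation and are still used in the adult islet. Mafa is switched on late and marks the mature, glucose-responsive beta cell, while Nkx6-1 and Mnx1 hold the beta-cell fate against those of the other islet cells, as shown in mice. Foxa2 opens chromatin at endodermal genes, Pdx1 among them.

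The libraries held 4828003 to 6681455 counts each, and the members' own counts ran from 118 for Nkx6-1 to 2216 for Pax6 in a library. Levels are given as CPM, counts scaled to library size and TMM factor, and are compared between groups of libraries and not between genes. The beta-cell label was checked against its markers, with 7 of 9 at a mean of 1 CPM or more over the 12 libraries and G6pc2 at 0 in every library. Ucn3, the other marker, averaged 1.09 CPM after urolithin B and IAPP and 0.268 to 0.429 CPM in the other groups. The summed level of the 9 markers was 15707 to 24999 CPM after urolithin B and IAPP, 11981 to 20730 CPM after IAPP, 14342 to 28845 CPM after urolithin B and 11122 to 19330 CPM in control cells. Of the alpha-cell markers Gcg had a mean above 1 CPM and Irx1 and Ttr were at 0. None of the 4 delta-cell or 6 acinar markers reached a mean of 1 CPM over the 12 libraries, with Sst, Cpa1 and Prss1 at 0. The beta-cell marker G6pc2 was at 0 as well, so a listed 0 does not by itself show that a gene was not expressed. The 4 replicate 1 libraries stood apart in every group, with 22139 to 22615 genes detected against 19529 to 20201 in the other 8. Results are therefore also given without them.

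Mafa and Mnx1 fell and Nkx6-1 rose in IAPP-treated cells, and all 3 moved the other way when urolithin B had been given first. Mafa was at 43.0% of its control mean after IAPP and at 82.4% after urolithin B and IAPP. Mnx1 was at 45.6% and 94.4% of its control mean in these 2 groups, and Nkx6-1 at 164% and 99.6%. The other 5 tested members did not pass the threshold in any of the 6 comparisons, which were 5 pairwise ones and the interaction. In bulk RNA, fewer cells expressing a gene and less of its RNA per cell cannot be told apart.

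**Figure D1:**
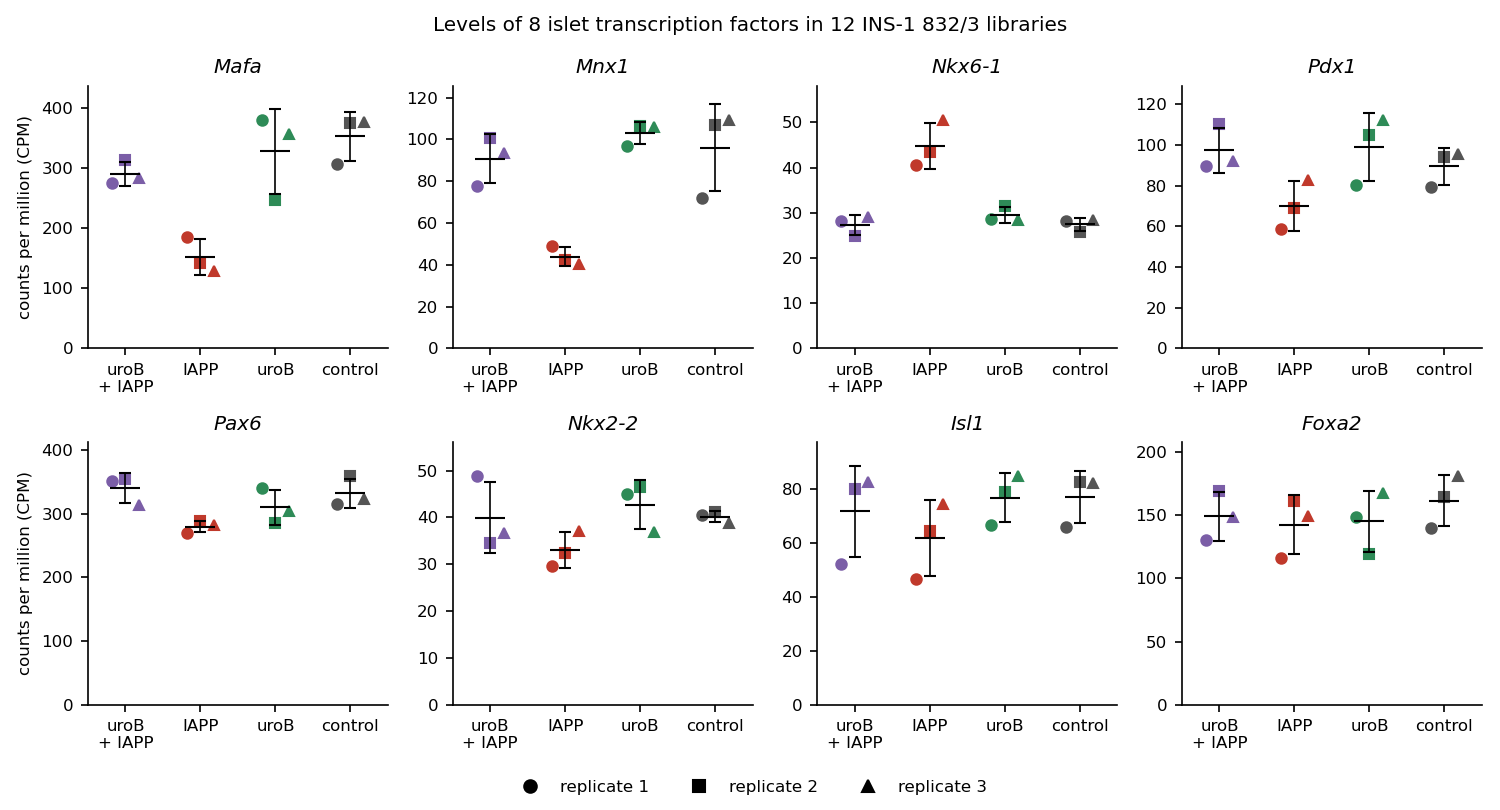
CPM (vertical axis) of the 8 tested transcription factors in each library of the 4 groups; symbols mark the replicate number, the horizontal line is the group mean and the bars are the SD over 3 libraries. The 3 IAPP libraries lie below the other 9 for Mafa and Mnx1 and above the other 9 for Nkx6-1.

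Mafa, the basic leucine zipper factor that drives insulin transcription in mature beta cells, had 275, 313 and 284 CPM in the 3 libraries given urolithin B and IAPP and 186, 142 and 128 CPM in the 3 given IAPP. It had 380.2, 247 and 358 CPM in urolithin B libraries and 307, 376 and 377 CPM in control libraries. The 3 IAPP libraries were the lowest of the 12, and the ranges of the other groups overlapped with each other, the lowest of these 9 libraries being urolithin B replicate 2. The group means were 291 ± 20.01, 152 ± 30.1, 329 ± 71.1 and 353 ± 40.2 CPM (SD, n = 3 libraries each) in the same group order. In IAPP against control cells Mafa fell by 1.21 ± 0.18 on the log2 scale (SE), with an adjusted p of 0.0104 in edgeR's quasi-likelihood test with Benjamini-Hochberg adjustment over all genes. It rose by 0.93 ± 0.18, in urolithin B + IAPP against IAPP, with an edgeR adjusted p of 0.04997, just under the threshold of 0.05.

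Mnx1, a homeodomain factor that in mice keeps beta cells from taking on a delta-cell fate, had 77.9, 101 and 93.5 CPM after urolithin B and IAPP and 48.8, 42.4 and 40.3 CPM after IAPP. It had 97.1, 106 and 106 CPM in urolithin B libraries and 72.0, 107 and 109 CPM in control libraries. As for Mafa, the 3 IAPP libraries were the lowest, and control replicate 1 was the next lowest. The group means were 90.7 ± 11.7, 43.8 ± 4.44, 103 ± 5.16 and 96.1 ± 20.9 CPM in the same order. Mnx1 fell by 1.13 ± 0.17 on the log2 scale in IAPP against control cells (edgeR adjusted p = 0.00995) and rose by 1.05 ± 0.17 in urolithin B + IAPP against IAPP (edgeR adjusted p = 0.0182).

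Nkx6-1, the homeodomain factor that represses genes of other islet cells and maintains insulin secretion, had the opposite order. It had 28.1, 24.8 and 29.1 CPM after urolithin B and IAPP, 40.6, 43.5 and 50.5 CPM after IAPP, 28.6, 31.6 and 28.3 CPM after urolithin B and 28.1, 25.7 and 28.4 CPM in control libraries. The 3 IAPP libraries were the highest, and the other 9 lay close together and overlapped. The means were 27.3 ± 2.26, 44.9 ± 5.09, 29.5 ± 1.79 and 27.4 ± 1.46 CPM in the same order. Nkx6-1 rose by 0.71 ± 0.12 on the log2 scale in IAPP against control cells (edgeR adjusted p = 0.0193) and fell by 0.71 ± 0.12 in urolithin B + IAPP against IAPP (edgeR adjusted p = 0.0257). Its counts, 118 to 253 a library, were the lowest of the 8 tested members.

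The upstream sequences of Mnx1 and Nkx6-1 are shown because these are the members past the threshold, with opposite directions, for which RefSeq promoters were at hand. Each runs from 250 bases before to 50 after the annotated start, 5′ to 3′ on the gene's strand, in RefSeq's GRCr8 rat assembly, and capitals mark TAAT on either strand (read as TAAT or ATTA), the core that homeodomain factors recognise.
Mnx1, chr4:6541395-6541694, plus strand: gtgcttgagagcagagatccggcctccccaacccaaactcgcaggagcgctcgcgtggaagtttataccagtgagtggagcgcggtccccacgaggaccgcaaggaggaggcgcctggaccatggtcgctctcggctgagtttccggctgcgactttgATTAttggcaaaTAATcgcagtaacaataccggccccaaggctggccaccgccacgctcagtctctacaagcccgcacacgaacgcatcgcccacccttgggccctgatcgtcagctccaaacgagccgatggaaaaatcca
Nkx6-1, chr14:8273988-8274287, plus strand: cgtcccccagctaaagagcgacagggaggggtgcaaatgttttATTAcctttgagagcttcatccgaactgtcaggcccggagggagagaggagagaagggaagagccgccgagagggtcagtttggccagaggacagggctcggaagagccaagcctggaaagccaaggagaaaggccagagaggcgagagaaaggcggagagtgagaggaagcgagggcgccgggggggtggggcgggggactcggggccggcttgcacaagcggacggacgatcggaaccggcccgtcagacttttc
The Mnx1 sequence held 2 matches and that of Nkx6-1 held 1. Of the 8 members with a promoter in that table, 5 (Nkx6-1, Nkx2-2, Isl1, Mnx1 and Foxa2) had TAAT, against 60.6% of all 33469 rat promoters of this length. The E-box CANNTG, which Neurod1 and other basic helix-loop-helix factors bind and which reads the same on both strands, occurred in 4 of the 8 (Pdx1, Nkx6-1, Neurod1 and Isl1), against 72.1% of all promoters. TGTTTAC, a forkhead motif, was in none of the 8 on either strand, against 3.78% of all. These are letter matches in 1 window, counted with overlaps allowed, and say nothing about binding.

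IAPP against control called 3 of the 8 tested members, 1 higher and 2 lower. Over all 16814 genes the test called 0.845%, with 0.547% higher (92 genes) and 0.297% lower (50 genes); with scaling to library size alone 24 genes were higher and 31 lower. The groups did not overlap for 5 of the 8 members, against 15.3% of all genes. Nkx6-1 was higher in every IAPP library than in any control library (7.74% of all genes were), and Mafa, Mnx1, Pax6 and Nkx2-2 were lower (7.54%). The median log2 fold change of the 8 was -0.30, against 0.05 over all genes. Without IAPP replicate 2 or 3, or without control replicate 2 or 3, none of the 3 passed, with edgeR adjusted p from 0.0504 to 0.0708 for Mafa, from 0.0565 to 0.0672 for Mnx1 and from 0.0904 to 0.126 for Nkx6-1; Nkx6-1 also missed without control replicate 1 (adjusted p = 0.0641). With scaling to library size alone Mafa and Nkx6-1 missed (0.120 and 0.290), and in a fit of these 2 groups alone Nkx6-1 missed (0.0678). The log2 fold changes in the 12 fits that left out a library stayed between -1.39 and -1.11 for Mafa, between -1.30 and -1.04 for Mnx1 and between 0.61 and 0.78 for Nkx6-1.

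Pax6, Nkx2-2, Pdx1, Isl1 and Foxa2 all had lower means after IAPP than in control cells, but none passed the test. Pax6, a paired-domain and homeodomain factor of hormone-gene transcription, had 269.8, 288 and 282 CPM after IAPP and 316, 359 and 323 CPM in control libraries. Its IAPP libraries were all below the control ones, but the log2 difference of -0.25 ± 0.11 had an edgeR adjusted p of 0.457. Nkx2-2, a homeodomain factor of endocrine specification, had 29.5, 32.5 and 37.1 CPM after IAPP against 40.5, 41.2 and 38.9 CPM in control libraries, again without overlap (-0.29 ± 0.15, edgeR adjusted p = 0.619). Pdx1 had 58.4, 68.8 and 82.8 CPM after IAPP and 79.1, 94.1 and 95.5 CPM in control libraries, so that IAPP replicate 3 lay above control replicate 1 (-0.36 ± 0.16, edgeR adjusted p = 0.504). With the replicate number as a block, a term of the fit for each replicate number, the log2 difference of Pdx1 was again -0.36, with an edgeR adjusted p of 0.0397, which passed; that fit called 7.83% of all genes and 4 of the 8 members. It was the only 1 of 23 alternatives to call Pdx1 here, and DESeq2 with the block and replicates 2 and 3 alone with the block did not.

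Isl1, a LIM-homeodomain factor that works with the cofactor Ldb1, and Foxa2, the forkhead factor, overlapped between these groups. Isl1 had 46.6, 64.7 and 74.6 CPM after IAPP and 66.0, 82.8 and 82.5 CPM in control libraries. Foxa2 had 116, 162 and 149.9 CPM after IAPP against 140.2, 164 and 181 CPM in control libraries. For both, replicate 1 was the lowest library of its group. The log2 difference was -0.32 ± 0.21 for Isl1 and -0.18 ± 0.17 for Foxa2, with edgeR adjusted p of 0.741 and 0.906. The 95% interval of the difference ran from -0.80 to 0.16 for Isl1 and from -0.57 to 0.21 for Foxa2, and the Pdx1 value of -0.36 lies within both.

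**Figure D2:**
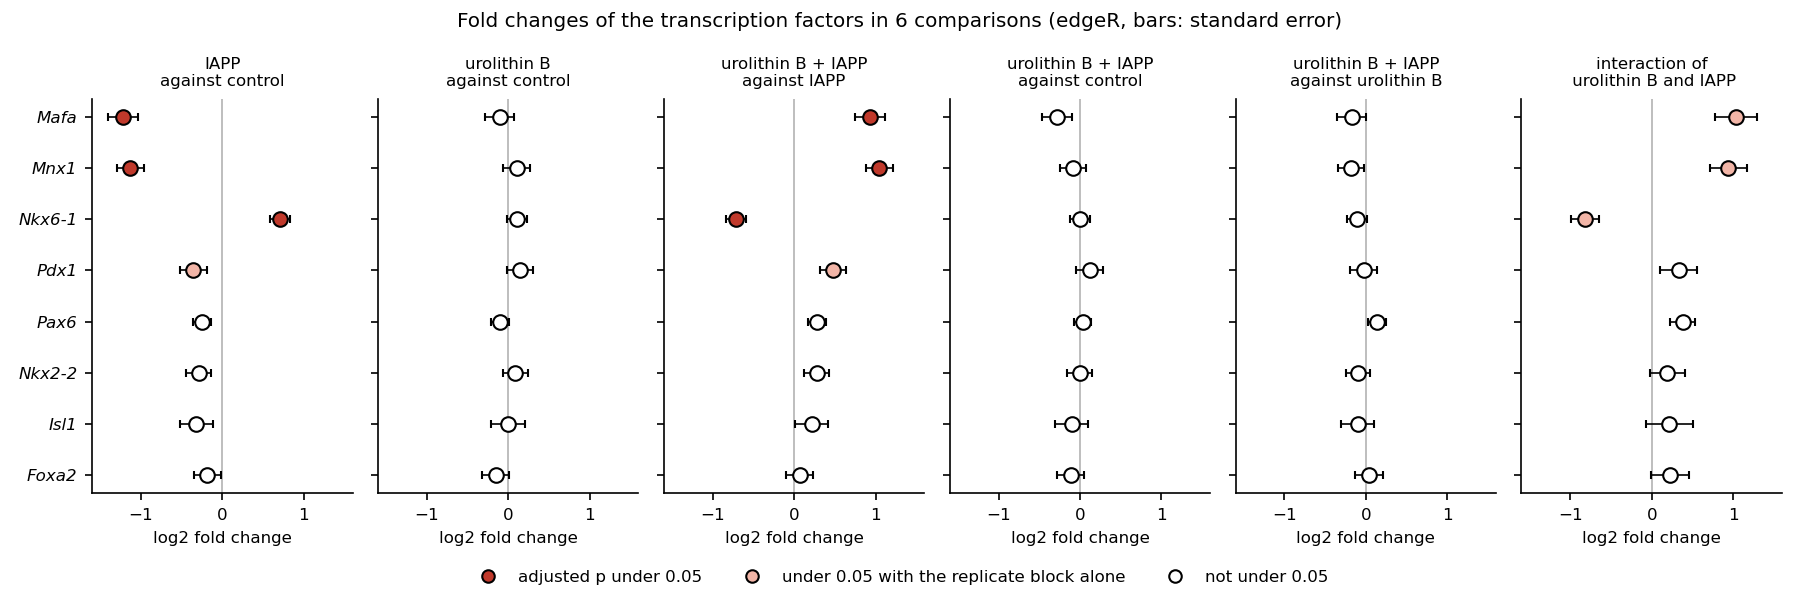
Log2 fold change (horizontal axis) of each tested member in the 6 comparisons, with bars for the SE; filled points passed an adjusted p of 0.05 in edgeR, and pale points passed only with the replicate number as a block. In IAPP against control, Mafa is at -1.21 and Nkx6-1 at 0.71, while every point in the comparisons of urolithin B with control and of urolithin B + IAPP with control or urolithin B is open and within 0.30 of 0.

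Urolithin B + IAPP against IAPP called the same 3 members, 2 higher and 1 lower, against 0.577% of all genes (0.155% or 26 genes higher and 0.422% or 71 lower). With scaling to library size alone 7 genes were higher and 11 lower. This comparison and that of IAPP with control share the 3 IAPP libraries, so their opposite signs are not separate evidence. The groups did not overlap for 5 of the 8 members, against 13.4% of all genes. Mafa, Mnx1, Pdx1 and Pax6 were higher in every urolithin B + IAPP library (6.58% of all genes were), and Nkx6-1 was lower (6.84%). Pdx1 had 89.6, 110.2 and 92.3 CPM after urolithin B and IAPP, against 58.4, 68.8 and 82.8 CPM after IAPP. Its log2 difference was 0.48 ± 0.16 with an edgeR adjusted p of 0.370, and 0.49 with an adjusted p of 0.00710 when the replicate number was a block, in a fit that called 5.24% of all genes. Of 23 alternatives 2 called Pdx1 here, this fit and DESeq2 with the block. Pax6 had 352, 355 and 314 CPM after urolithin B and IAPP, all above its IAPP libraries, with a log2 difference of 0.28 ± 0.11 (edgeR adjusted p = 0.464).

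The remaining members overlapped between these 2 groups. Nkx2-2 had 48.8, 34.6 and 36.6 CPM after urolithin B and IAPP, and replicate 1 alone lay above all IAPP libraries (0.28 ± 0.15 on the log2 scale, edgeR adjusted p = 0.723). Isl1 had 52.3, 80.2 and 82.9 CPM after urolithin B and IAPP, and Foxa2 had 130.4, 169 and 149 CPM. Their log2 differences from IAPP were 0.21 ± 0.21 and 0.07 ± 0.17, neither past the threshold. The median of the 8 members was 0.28, against -0.02 over all genes. In the 12 fits that left out a library, Mafa passed in 2, Nkx6-1 in 5 and Mnx1 in 7. None of the 3 passed without urolithin B + IAPP replicate 2 or 3 or without IAPP replicate 2 or 3, where adjusted p in edgeR ran from 0.192 to 0.256 for Mafa, from 0.104 to 0.116 for Mnx1 and from 0.105 to 0.167 for Nkx6-1. Mafa and Nkx6-1 also missed without urolithin B + IAPP replicate 1 (0.0801 and 0.118), control replicate 2 (0.0856 and 0.0520) or control replicate 3 (0.0908 and 0.0835). Mnx1 missed without IAPP replicate 1 (0.0599), and Mafa without control replicate 1 (0.0550), urolithin B replicate 1 (0.0535) or urolithin B replicate 3 (0.0777). The calls also ended with scaling to library size alone, where adjusted p was 0.560 for Mafa, 0.368 for Nkx6-1 and 0.134 for Mnx1, and with a fit of these 2 groups alone, where it was 0.105 for Mafa and Nkx6-1 and 0.0514 for Mnx1. Without the low-count filter Mafa and Nkx6-1 missed (0.0514 and 0.0523), as did Mafa with a filter of 1 CPM in 3 libraries (0.0526).

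Urolithin B alone moved none of the 8 members past the threshold. The edgeR test called 0% of all genes against control, and 151 genes but no member had an unadjusted p under 0.05. No member was called by DESeq2 or by limma-voom. No member's groups were free of overlap, against 4.48% of all genes. Pdx1 had 80.3, 105 and 112 CPM after urolithin B, Pax6 had 339.9, 286 and 305 CPM, and Nkx2-2 had 44.9, 46.5 and 36.8 CPM. Isl1 had 66.8, 79.0 and 84.8 CPM and Foxa2 had 149, 119.6 and 168 CPM. Each of these ranges overlapped with that of the control libraries. The log2 differences of the 8 ran from -0.16 ± 0.17 for Foxa2 to 0.15 ± 0.16 for Pdx1. Their 95% intervals reached from -0.54 for Foxa2 to 0.52 for Pdx1, and changes within a gene's own interval remain possible with 3 libraries a group.

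Cells given urolithin B before IAPP were not separated from control cells in any member. For urolithin B + IAPP against control, edgeR called 0% of all genes and none of the 8 members, with 411 genes and none of the members at an unadjusted p under 0.05, and neither DESeq2 nor limma-voom called a member. The groups overlapped for all 8, against 7.4% of genes without overlap. The log2 difference of Mafa was the most negative at -0.28 ± 0.18, with a 95% interval from -0.70 to 0.14, so differences within those limits remain possible. Nkx6-1 and Nkx2-2 had differences of 0.00 ± 0.12 and -0.01 ± 0.15, and Mnx1 of -0.08 ± 0.16. Against urolithin B alone, the test again called 0% of genes and no member (281 genes and none of the members at an unadjusted p under 0.05, and no member in DESeq2 or limma-voom), with 5.43% of genes and no member free of overlap. The 8 differences there ran from -0.19 ± 0.16 for Mnx1 to 0.13 ± 0.11 for Pax6, with 95% intervals between -0.59 and 0.43.

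Ordered by mean level, Mafa was lowest after IAPP, followed by urolithin B + IAPP, urolithin B and control, and only the step above IAPP exceeded the spread between libraries. Mnx1 had IAPP lowest, then urolithin B + IAPP, control and urolithin B, and Nkx6-1 had urolithin B + IAPP lowest, then control, urolithin B and IAPP, with the same single step beyond the spread, between IAPP and its neighbour. For Pdx1, Pax6, Nkx2-2, Isl1 and Foxa2, IAPP was also the lowest of the 4 means, at 70.0 ± 12.2, 279.8 ± 9.16, 33.0 ± 3.805, 62.0 ± 14.2 and 143 ± 23.5 CPM, but its neighbour in the order did not differ beyond the spread. Above IAPP, Pdx1 averaged 97.4 ± 11.2, 99.1 ± 16.7 and 89.6 ± 9.11 CPM in urolithin B + IAPP, urolithin B and control cells, and Pax6 averaged 340.4 ± 23.1, 310.3 ± 27.3 and 333 ± 22.9 CPM. Nkx2-2 averaged 40.0 ± 7.67, 42.7 ± 5.20 and 40.2 ± 1.17 CPM in these groups. Isl1 averaged 71.8 ± 17.0, 76.9 ± 9.16 and 77.1 ± 9.65 CPM, and Foxa2 averaged 149.6 ± 19.5, 145 ± 24.2 and 162 ± 20.5 CPM. For these 5 genes the 3 other groups overlapped with each other.

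The interaction asks whether IAPP changed a member differently with urolithin B than without it. It was 1.04 ± 0.26 for Mafa, 0.94 ± 0.23 for Mnx1 and -0.82 ± 0.17 for Nkx6-1 on the log2 scale, with edgeR adjusted p of 0.333, 0.333 and 0.209. None of the 8 members passed, against 0.0297% of all genes called, although 4 members (Mafa, Mnx1, Nkx6-1 and Pax6) and 908 genes had an unadjusted p under 0.05. Limma-voom also called none of the members, with 8 of all 16814 genes called. DESeq2 called 3 members and 113 of all genes. With the replicate number as a block, edgeR called 1.63% of all genes and the same 3 members as the pairwise comparisons. In that fit the values were 1.06 for Mafa (adjusted p = 0.00343), 0.91 for Mnx1 (0.00497) and -0.82 for Nkx6-1 (0.0139).

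The size of the change differed between the replicate numbers. Within replicate numbers 1, 2 and 3, the log2 ratio of IAPP to control was -0.72, -1.40 and -1.55 for Mafa, and -0.56, -1.33 and -1.43 for Mnx1. For Nkx6-1 it was 0.53, 0.75 and 0.82. The direction was the same in all 3 numbers for each gene, and replicate 1 gave the smallest change each time. The log2 ratio of urolithin B + IAPP to IAPP was 0.57, 1.14 and 1.14 for Mafa, 0.67, 1.24 and 1.21 for Mnx1, and -0.52, -0.80 and -0.79 for Nkx6-1, again smallest in replicate 1. Pdx1 did not follow this order: its ratio of IAPP to control was -0.43, -0.45 and -0.21, and that of urolithin B + IAPP to IAPP was 0.61, 0.68 and 0.16, smallest in replicate 3.

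**Figure D3:**
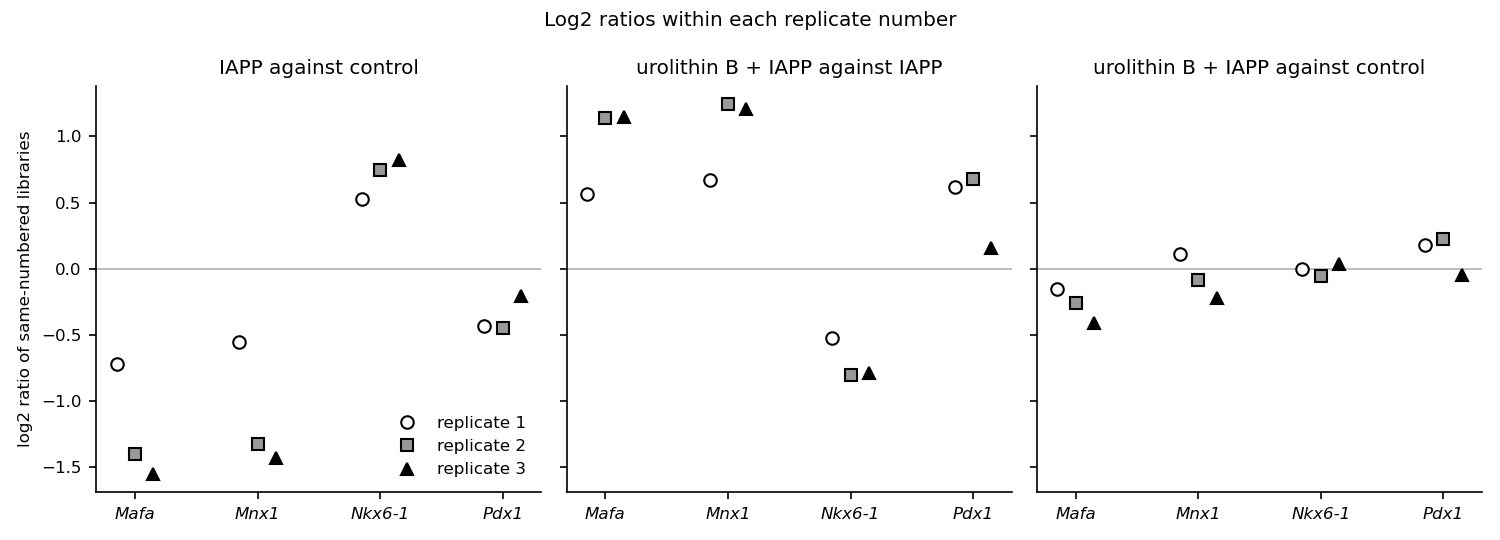
Log2 ratio (vertical axis) between libraries with the same replicate number for Mafa, Mnx1, Nkx6-1 and Pdx1, in 3 comparisons. The Mafa ratio of IAPP to control is -0.72 in replicate 1 and -1.40 and -1.55 in the other replicates, and those of urolithin B + IAPP to control lie between -0.41 and 0.23 for the 4 genes.

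Replicates 2 and 3 alone gave larger changes of Mafa, Mnx1 and Nkx6-1 than all 12 libraries, and smaller ones of Pdx1, in IAPP against control, urolithin B + IAPP against IAPP and the interaction. The log2 fold changes of IAPP against control were then -1.48 for Mafa (edgeR adjusted p = 7.85e-06), -1.39 for Mnx1 (2.44e-06) and 0.79 for Nkx6-1 (0.00613). Those of urolithin B + IAPP against IAPP were 1.13 for Mafa (0.000220), 1.22 for Mnx1 (1.58e-05) and -0.81 for Nkx6-1 (0.00725). The interaction passed for Mafa at 1.44 (0.00133) and for Mnx1 at 1.24 (0.000974), and missed for Nkx6-1 at -0.97 (0.0525). Pdx1 passed in none of these. That fit called 754 of 14715 genes in IAPP against control, 418 in urolithin B + IAPP against IAPP and 107 in the interaction. With all 12 libraries the numbers were 142, 97 and 5 of 16814 genes, so the smaller adjusted p-values were not particular to these members. Isl1 and Pdx1 were lowest in replicate 1 in all 4 groups, by 0.46 and 0.31 on the log2 scale in the mean against replicates 2 and 3, whereas Pax6 and Nkx6-1 differed by 0.02 and -0.04.

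Mafa and Mnx1 were among each other's 4 nearest genes by their pattern over the 12 libraries. Likeness was measured as the root mean square difference in log2 CPM after the mean of each replicate number had been taken out, over 12 libraries and 10972 genes with a mean of at least 5 CPM, so that a smaller value is more alike. Mnx1 was the second nearest gene to Mafa at 0.149, behind Ece1 at 0.138, an endopeptidase that processes endothelin, and ahead of Rprml at 0.173 and Tex21 at 0.183. The median over all genes was 0.543. Nearest to Mnx1 were Mfsd2a, a lysophospholipid transporter, at 0.133, Gpr119, a lipid receptor of beta cells, at 0.134, Mafa at 0.149 and Rab3b, a small GTPase of secretory vesicles, at 0.162, against a median of 0.539. Nearest to Nkx6-1 were Kcnk2 at 0.0540, Fgf13 at 0.0608, Fam168a at 0.0698 and Tmtc1 at 0.0754, against a median of 0.351. Kcnk2 is a potassium channel. Neighbours were chosen over the same libraries, so their direction is not separate evidence. Mfsd2a, Gpr119, Kcnk2, Fgf13 and Tmtc1 missed in IAPP against control (edgeR adjusted p from 0.0835 to 0.500). Ece1, Rprml, Tex21, Rab3b and Fam168a passed there. Of these neighbours only Ece1, Rab3b and Fam168a passed in urolithin B + IAPP against IAPP. Among the members themselves, Pax6 and Foxa2 were the closest pair at 0.120, both having varied little between groups, followed by Isl1 and Pax6 at 0.132, and Mafa and Nkx6-1 were the farthest apart at 0.813.

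**Figure D4:**
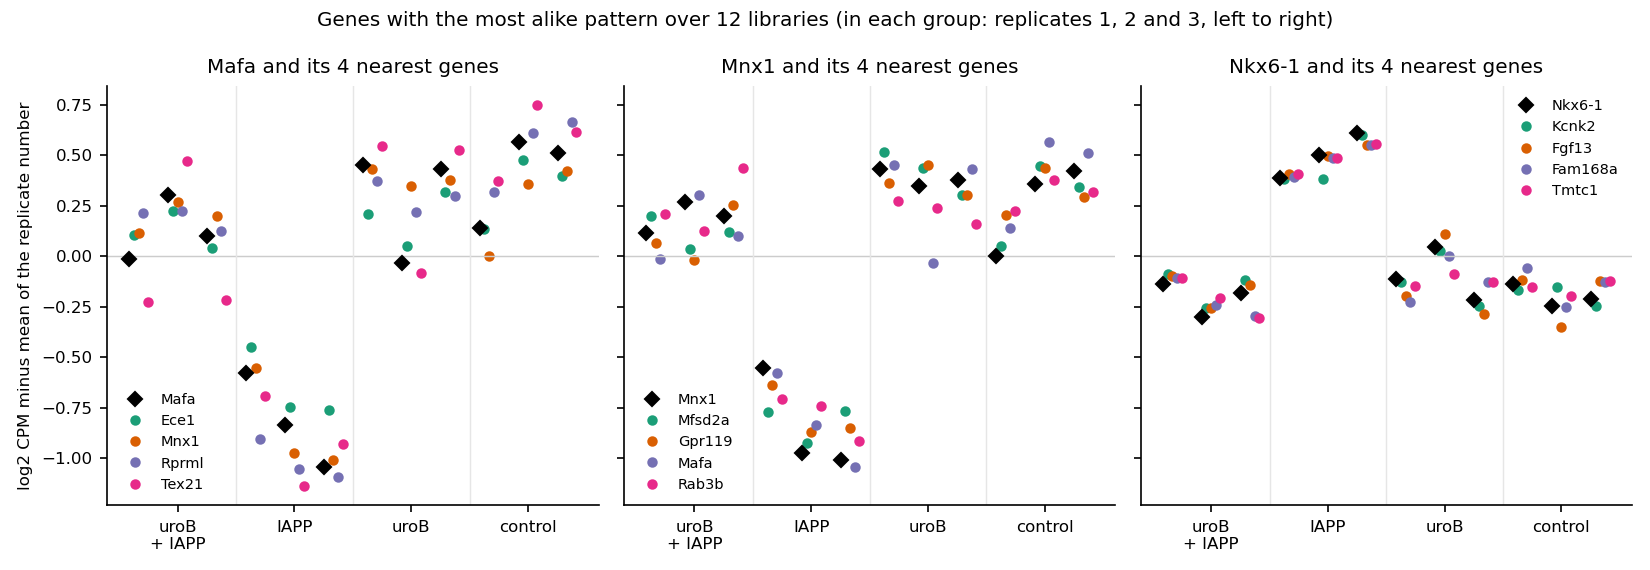
Log2 CPM less the mean of the replicate number (vertical axis) in the 12 libraries, for Mafa, Mnx1 and Nkx6-1 (diamonds) and the 4 genes most like each (circles); within a group the points run by replicate number. The neighbours of Mafa and Mnx1 are lowest in the IAPP libraries and those of Nkx6-1 are highest there, which follows from how they were chosen.

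Few of the other genes around these factors passed the test. Over all 16814 genes, 1682 had an unadjusted p under 0.05 in IAPP against control and 1430 in urolithin B + IAPP against IAPP. In these 2 comparisons DESeq2 called 499 and 319 of all genes, limma-voom 147 and 101, and edgeR with the replicate block 1316 and 881. Of 44 other islet transcription factors, 38 were tested, and in IAPP against control 1 rose and none fell in edgeR. It was Nfatc1, a calcineurin-dependent factor, with 87.3 ± 7.62 CPM after IAPP and 39.1 ± 8.21 CPM in control libraries (1.16 ± 0.18 on the log2 scale, edgeR adjusted p = 0.0108). The list's median was 0.04, against 0.05 over all genes, and with the replicate block 4 of its genes rose and 4 fell. None of the 38 passed in urolithin B + IAPP against IAPP by edgeR (7 at an unadjusted p under 0.05; DESeq2 called 1, limma-voom called none), and with the block 4 fell, Nfatc1, Foxo1, Myt1 and Esrrg. Of 19 paralogs of the members, such as Foxa1 and Isl2, 9 were tested and none passed in either comparison, with 1 at an unadjusted p under 0.05 in each and none called by DESeq2 or limma-voom. With the block, Neurod2 passed in IAPP against control.

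Of 36 cofactors that work with the members, such as Ldb1 and its partners, 34 were tested and none passed in edgeR. In IAPP against control 6 had an unadjusted p under 0.05 and neither DESeq2 nor limma-voom called any, and in urolithin B + IAPP against IAPP 3 did, while DESeq2 called 1 and limma-voom none. With the block, 2 rose and 1 fell in each of these comparisons. Of 46 beta-cell genes known to be bound or activated by the members, 38 were tested. In IAPP against control 1 fell, Rgs16, a regulator of G-protein signalling, with 27.7 ± 3.19 CPM after IAPP and 48.5 ± 7.09 CPM in control libraries (-0.81 ± 0.14 on the log2 scale, edgeR adjusted p = 0.0211). DESeq2 called 7 of these genes and limma-voom 3, against 499 and 147 of all 16814 genes. With the block 1 rose and 7 fell, against 1316 of all genes called. The list's median was -0.11, against 0.05 over all genes.

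Of these 38 genes, 1 rose in urolithin B + IAPP against IAPP, Slc2a2, the main glucose transporter of rodent beta cells. Slc2a2 had 579.7 ± 72.4 CPM after urolithin B and IAPP and 305 ± 45.8 CPM after IAPP (0.93 ± 0.17 on the log2 scale, edgeR adjusted p = 0.0336), and 589.9 ± 103 and 521 ± 50.0 CPM in urolithin B and control cells. In IAPP against control it missed, at -0.77 ± 0.17 with an edgeR adjusted p of 0.0589. With the block 6 rose and 1 fell in urolithin B + IAPP against IAPP, and the list's median was 0.16, against -0.02 over all genes. Of 25 genes of dedifferentiation and other endocrine cells, 13 were tested and none passed in edgeR, DESeq2 or limma-voom in either comparison, with 4 at an unadjusted p under 0.05 in each. With the block, Gcg, the glucagon gene, rose and Myc, Mycl and Gast fell in IAPP against control. In the block fit of urolithin B + IAPP against IAPP, Gcg, Myc and Gast rose and none fell. None of the 5 lists had a gene past the threshold in edgeR, DESeq2 or limma-voom in the other pairwise comparisons or in the interaction, where 0 to 6 genes of a list had an unadjusted p under 0.05. With the block, edgeR called Gcg higher in urolithin B against control (0.95 on the log2 scale, adjusted p = 0.00103) and in urolithin B + IAPP against control (1.13, 3.65e-05). In the interaction the block called Slc2a2 and Ssbp4 higher and Nfatc1, Chgb and Cacna1c lower. For scale, Cdkn1a, the cell-cycle inhibitor p21 and known beforehand to respond in these libraries, had 154 ± 18.4 CPM after IAPP and 17.8 ± 2.48 CPM in control cells.

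Neurod1, the basic helix-loop-helix factor that activates insulin transcription, had 0 counts in all 12 libraries. A count of 0 allows up to 3 counts, which is 0.463 to 0.683 CPM depending on the library, and covers counting error only. The marker G6pc2 and the hormone gene Iapp were also listed at 0 in every library. Neither the counting software nor the annotation is named in the labels or notes, so a 0 in this table is stated as listed and not as a lack of Neurod1 expression, and no comparison was made for it.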

How the data were processed

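Values deposited by the authors were unnormalized read counts, whole numbers per gene, in 1 table of 12 libraries; per the labels' protocols these were QuantSeq 3prime mRNA FWD libraries, which read near transcript ends. FastQC, Bowtie2 and SAMtools are named, per the submitters' processing notes, without versions; the read counter, genome build and annotation are not given in these sources. Libraries were grouped by title, with 3 biological replicates a group. No label says that replicates were separate cultures, so the p-values cover only the spread among these libraries, possibly a technical one. Pairs of replicates differed beyond sampling noise (chi-square per degree of freedom 3.71 to 58.2).

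From these counts, edgeR 4.0.16 in R 4.3.3 was run with TMM scaling, filterByExpr on the group, 1 quasi-likelihood fit of all 12 libraries, 6 contrasts and Benjamini-Hochberg adjustment over 16814 genes at 0.05. The ± values are SE for log2 fold changes and SD for CPM. Each SE is the size of the log2 fold change divided by the square root of edgeR's F statistic. The 95% intervals use this SE and 8 residual degrees of freedom. The edgeR p-values rest on other degrees of freedom, so intervals and p-values can differ slightly. The calculation was tested on simulated data. Alternatives were DESeq2 1.42.0, limma-voom (limma 3.58.1), other scalings and filters, a fit of the compared groups alone, a replicate block, replicates 2 and 3 alone and the loss of each library. Replicates 2 and 3 with the block were added after the data had been seen. The numbers paired the libraries: deviations from group means correlated at r = 0.444 to 0.888 in all 18 same-number pairs. That pairing comes from the data and rested on replicate 1, since it was -0.058 to 0.021 without it; the labels name only a replicate number.

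The 9 members, the 5 gene lists and the markers were chosen with earlier results of these data known. Of 160 list genes, 9 stood in several lists. Named were the members, Cdkn1a, up to 4 called genes of a list by smallest p and the 4 genes most like each called member; genes named under the replicate block, and Iapp, were picked after their values were seen. Promoter sequences came from RefSeq's GRCr8 table, matched by symbol, which held 9 members by name and a promoter for 8.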

Additional observations from a re-analysis of the deposited data

Results flagged for a closer look

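For 3 members, the change under IAPP differed between cells with and without urolithin B when the replicate number was a block in edgeR. The interaction was 1.06 on the log2 scale for Mafa (adjusted p = 0.00343), 0.907 for Mnx1 (0.00497) and -0.816 for Nkx6-1 (0.0139). Without the block the values were 1.04, 0.94 and -0.82, with adjusted p of 0.333, 0.333 and 0.209. Over all genes the interaction was called for 1.63% with the block and for 0.0297% without it.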

How the results depend on the processing

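Of 1093 values of single members under 23 alternatives, 992 kept their direction and their side of the threshold, 47 lost a call, 16 gained one and 38 changed sign; none of the 38 was called. In IAPP against control, 3 members were called; library size alone gave 1, and fits without a library gave 0 to 3. In urolithin B + IAPP against IAPP, 3 were called; library size alone gave 0, no low-count filter gave 1, the compared groups alone gave 0, and fits without a library gave 0 to 3. In the interaction, where none was called, DESeq2 gave 3, the replicate block 3, DESeq2 with replicate block 3, replicates 2 and 3 alone 2, and the same with replicate block 2. Over all genes these fits called 113, 274, 287, 107 and 116 in that order. The replicate block added Pdx1 to both of the first comparisons (4 members each in edgeR; DESeq2 with the block added it to the second alone) and changed no other call of a member in the pairwise comparisons. It raised the number of genes called to 1316 in IAPP against control (142 without it), 881 in urolithin B + IAPP against IAPP (97) and 274 in the interaction (5); over all alternatives the numbers ran from 42 to 1316, from 18 to 881 and from 1 to 287. The other 3 comparisons called no member under any alternative. The cause of these shifts was not tested, beyond fewer libraries in the fits that leave some out.

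Signs turned for small differences only. In urolithin B against control, Isl1 was 0.0032 with DESeq2 size factors, 0.0012 with no low-count filter, 0.0030 in DESeq2, 4.4e-05 in limma-voom and 0.00015 in DESeq2 with the replicate block, and Mnx1 was -0.0185 with replicates 2 and 3 alone and -0.0189 with the block added. Pax6 in urolithin B + IAPP against control was -0.068 with library size alone, -0.0424 with replicates 2 and 3 alone and -0.0423 with the block added. That scaling put the median of all genes there at -0.09, against 0.02 with TMM. Foxa2 in urolithin B + IAPP against urolithin B was -0.077 with library size alone, and the interaction of Nkx2-2 was -0.047 with replicates 2 and 3 alone and -0.044 with the block added. Fits without a library ran from -0.11 to 0.091 for Isl1, from -0.22 to 0.062 for Mafa and from -0.071 to 0.20 for Mnx1 in urolithin B against control, and from -0.061 to 0.18 for Foxa2 in urolithin B + IAPP against IAPP. In urolithin B + IAPP against control they ran from -0.053 to 0.059 for Nkx6-1, from -0.17 to 0.085 for Nkx2-2, from -0.22 to 0.086 for Isl1, from -0.0041 to 0.093 for Pax6 and from -0.26 to 0.021 for Mnx1. In urolithin B + IAPP against urolithin B they ran from -0.16 to 0.071 for Pdx1, from -0.22 to 0.094 for Isl1 and from -0.080 to 0.16 for Foxa2. The fit of the compared groups alone does not apply to the interaction, and 3 DESeq2 values without an adjusted p were left out. With 3 libraries a group, Nkx6-1 had the lowest counts of the tested members, and Neurod1 could not be tested. The SE of Nkx6-1 in IAPP against control, 0.12, was still smaller than that of every tested member but Pax6 (0.11).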
